A study of Mus musculus with 27 samples.

Results

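The 7 genes described here, Grm6, B3gnt7, Clec4g, Insm1, Slc4a10, Mfsd2a and Akap1, were chosen by their measured values, as genes among those most strongly lowered when disulfiram (DSF) was added to stimulated mouse B cells. They are 7 of the 54532 genes in the tables, of which 31187 had a read in either experiment. Because the difference between DSF and vehicle chose the genes, it is given below as a description with no test. Intervals on its count ratios cover counting error only and decide nothing. For the 7 genes, tests are given only for contrasts other than DSF against vehicle. Each of these still shares stimulated or DSF libraries with the choice, so the p-values are not free of it.

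Splenic B cells of wild-type C57BL6 mice were taken from culture after 3 h and their poly(A) RNA was sequenced. Experiment 1 had 5 groups of 4 libraries: unstimulated cells without inhibitor, cells given LPS with vehicle (DMSO), LPS with 1 μM DSF, IL-4 plus an anti-CD40 antibody (IL4CD40) with vehicle, and IL4CD40 with 1 μM DSF. Experiment 2 had 1 library for each of these 5 conditions and 1 each for LPS and for IL4CD40 with ibrutinib, an inhibitor of Bruton's tyrosine kinase, for which the labels give the same dose. The cells were obtained by removing the other spleen cells on magnetic beads, and the study calls its RNA-seq replicates biologically independent, without saying whether that means separate mice or separate cultures. The p-values measure the spread between these libraries. DSF is a drug against alcohol dependence that inhibits aldehyde dehydrogenase, LPS is a bacterial lipopolysaccharide that stimulates B cells without T cell help, and IL-4 with CD40 ligation stands in for that help.

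The 7 genes belong to unrelated families. Grm6 encodes a metabotropic glutamate receptor best known from the retina, where it lets ON bipolar cells respond to glutamate, and Clec4g encodes a C-type lectin receptor known from the sinusoidal endothelium of liver and lymph node. Slc4a10 is a sodium-driven bicarbonate transporter of neurons and choroid plexus, and Mfsd2a is a sodium-dependent carrier of lysophosphatidylcholine that brings docosahexaenoic acid into the brain. B3gnt7 adds N-acetylglucosamine in the making of keratan sulfate and polylactosamine chains, Akap1 tethers protein kinase A to the outer mitochondrial membrane, and Insm1 is a zinc finger transcriptional repressor needed for neuroendocrine cells to differentiate. Protein products were not measured.

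RefSeq promoter windows (GRCm38.p6, 250 bases before to 50 after the start) were matched for 6 of the 7 genes, by symbol, with the window nearest to the gene start in the files. They are shown for the 4 genes whose window begins exactly at that start, because these 4 fall into a pair with few CpG dinucleotides and a pair with many although all 4 were lower with DSF. The 250 bases before the start are printed 5′ to 3′ on the strand of the gene, and capitals mark a match to one of 12 motifs searched on both strands. The bases shown are chr11:50850435-50850684 (+ strand) for Grm6, chr8:3720652-3720901 (- strand) for Clec4g, chr4:122961189-122961438 (- strand) for Mfsd2a and chr11:88864587-88864836 (- strand) for Akap1.
Grm6: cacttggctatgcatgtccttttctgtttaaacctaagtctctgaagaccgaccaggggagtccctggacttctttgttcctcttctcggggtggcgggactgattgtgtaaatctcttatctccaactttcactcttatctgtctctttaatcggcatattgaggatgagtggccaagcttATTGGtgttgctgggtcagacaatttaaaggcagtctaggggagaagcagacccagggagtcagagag
Clec4g: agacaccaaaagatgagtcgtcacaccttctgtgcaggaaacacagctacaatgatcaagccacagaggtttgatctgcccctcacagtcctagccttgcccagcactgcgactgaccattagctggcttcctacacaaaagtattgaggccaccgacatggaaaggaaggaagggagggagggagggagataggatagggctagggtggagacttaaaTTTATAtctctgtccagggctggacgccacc
Mfsd2a: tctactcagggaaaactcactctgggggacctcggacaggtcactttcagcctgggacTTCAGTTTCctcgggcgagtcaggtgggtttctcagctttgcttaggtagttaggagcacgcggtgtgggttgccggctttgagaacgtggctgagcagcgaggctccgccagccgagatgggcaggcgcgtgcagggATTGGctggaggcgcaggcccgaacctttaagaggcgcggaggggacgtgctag
Akap1: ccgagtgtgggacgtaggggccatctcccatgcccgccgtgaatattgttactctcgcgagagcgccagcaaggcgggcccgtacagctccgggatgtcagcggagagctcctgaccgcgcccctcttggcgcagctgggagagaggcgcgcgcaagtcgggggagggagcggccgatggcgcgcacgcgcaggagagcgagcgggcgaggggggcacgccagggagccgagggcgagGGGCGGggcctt

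The windows of Grm6 and Clec4g held 4 CpG each, those of Mfsd2a and Akap1 held 22 and 40, and those of Slc4a10 and B3gnt7 held 4 and 21. As the ratio of observed to expected CpG, Clec4g (0.206), Grm6 (0.218) and Slc4a10 (0.229) lay below the median of 0.384 over all 32851 windows, and B3gnt7 (0.729), Mfsd2a (0.845) and Akap1 (1.10) lay above it. The motif matches were few and no motif was found in more than 2 of the 6 windows. CCAAT was read on the reverse strand at position -68 from the start of Grm6 and -54 from that of Mfsd2a, and 37.4% of all windows hold it. TATAAA was found, also reversed, at -31 in Clec4g and -135 in Slc4a10, and in 13.6% of all windows. GGGCGG was found in B3gnt7 and Akap1 and in 35.7% of all windows, CACGTG in B3gnt7 (7.15%), TGANTCA in Slc4a10 (7.81%) and GAAANNGAA in Mfsd2a (8.56%). The motifs GGGANTTTC (1.11% of windows), TGACGT (7.51%), CCGGAAG (8.86%), TTCNNNGAA (8.30%), GAANNTTC (7.86%) and ATGCAAAT (1.74%) were in none of the 6. These motifs share bases with one another where they overlap, and a match here is only a match of letters.

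Libraries held 17804851 to 23632992 counts in experiment 1 and 16049295 to 24619776 in experiment 2. All 10 B cell markers were at 1 FPKM (fragments scaled to exon length and library size) or more in every library of experiment 1. Myeloid RNA was present too, since the 10 myeloid markers summed to 403 to 485 FPKM in unstimulated cells and to 132 to 245 in the 4 stimulated groups. The unstimulated libraries stood apart from each other: libraries 1 and 2 differed by 2-fold or more from each other in 0.163% of the genes compared, but the most distant pair of the 4 in 10.3%, against at most 0.326% between LPS libraries. Neutrophil markers summed to 82.7, 82.4, 26.4 and 32.0 FPKM in unstimulated libraries 1 to 4, and erythroid markers to 4.06, 3.34, 21.5 and 22.7. No label names a difference between the pairs. Tests against unstimulated cells were therefore run with all 4 libraries and with each pair alone, a choice made after seeing the data. The p-values against 1 pair leave out the spread between the pairs, so they can be far smaller than those with all 4. Erythroid markers also moved with DSF: they summed to between 1.74 and 3.18 FPKM in the vehicle groups of experiment 1 and between 3.09 and 4.86 in its DSF groups. In experiment 2 they were at 36.7 FPKM with LPS against 93.0 with DSF, and at 34.3 with IL4CD40 against 81.1. Their part in the results below was not tested. IL4CD40 libraries were also split as 1 and 2 against 3 and 4, more weakly, with up to 3.35% of genes 2-fold apart. Those with DSF were split likewise, with up to 1.28%. Deviations from the group mean in same-numbered IL4CD40 and unstimulated libraries correlated at -0.023 to 0.005. Between IL4CD40 without and with DSF they correlated at 0.28, -0.03, -0.04 and 0.26 for libraries 1 to 4.

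In experiment 1, every DSF library lay below every vehicle library in 6 of the 7 genes with LPS, Insm1 being the exception, and in 6 of 7 with IL4CD40, Slc4a10 being the exception. Over all genes tested this held for 33.8% with LPS and 26.5% with IL4CD40, and nothing is read from the 6 of 7, since the genes were chosen for it. In bulk RNA, fewer cells of a type and less RNA per cell cannot be told apart. Scaled to total counts in place of TMM (a scaling factor that sets most genes to no change), the median of all genes moved to -0.21 on the log2 scale with LPS and -0.16 with IL4CD40, from 0.00 and -0.02, and the 7 genes stayed lower with DSF on both scales wherever they were fitted. That scaling changed the calls among all genes from 4966 higher and 5096 lower to 3473 and 6680 with LPS, and from 4301 and 4514 to 3262 and 5832 with IL4CD40.

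**Figure D1:**
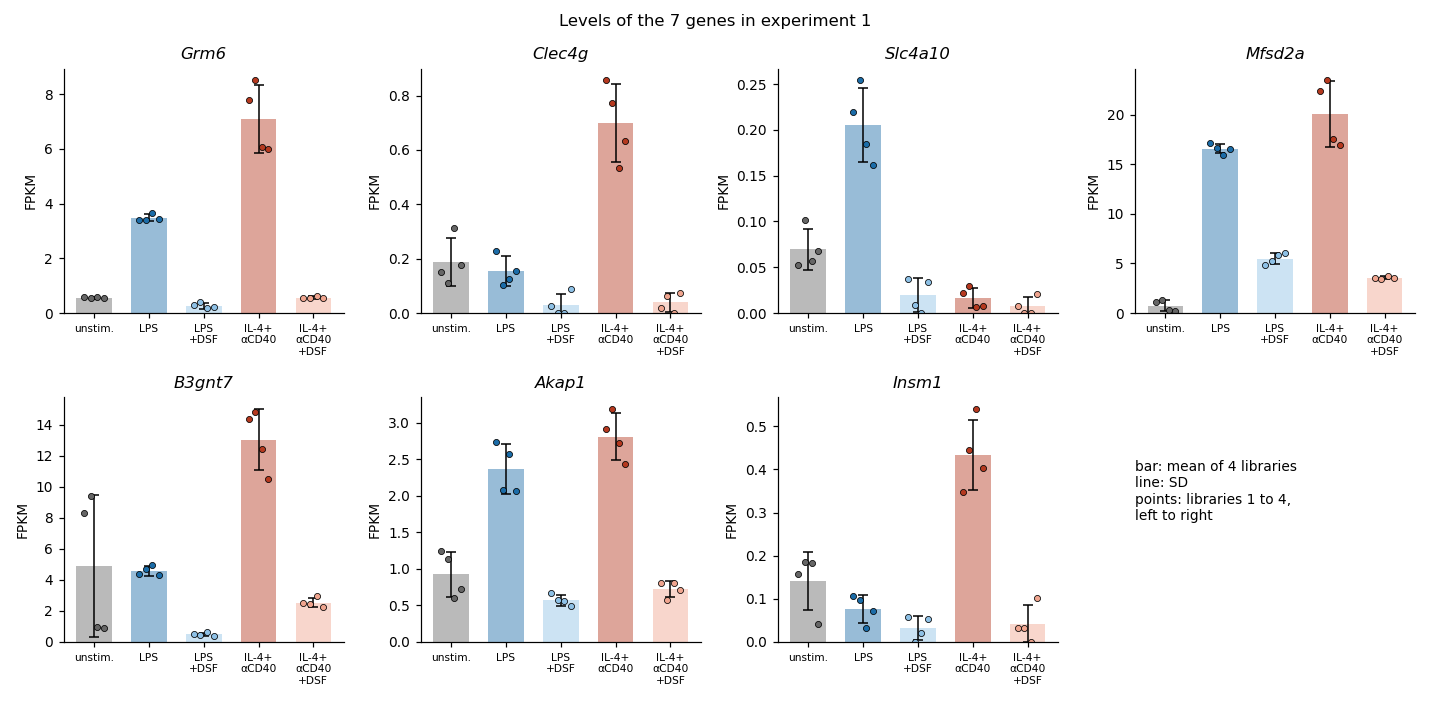
FPKM of each gene (y axis, linear, one panel per gene) in the 5 groups of experiment 1, where bars are means of 4 libraries, lines are SD and points are libraries 1 to 4 from left to right. Grm6, Mfsd2a and Akap1 stand high in both stimulated groups and low with DSF, Clec4g and Insm1 stand high with IL4CD40 alone, Slc4a10 with LPS alone, and B3gnt7 is split among unstimulated libraries.

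Grm6 (ENSMUSG00000000617, mm10 chr11:50850685-50866208, plus strand, up to 11 exons) was the receptor gene with the most reads. Its level was 3.41, 3.38, 3.67 and 3.46 FPKM in the LPS libraries and 0.277, 0.401, 0.175 and 0.202 with LPS and DSF. With IL4CD40 it was 7.79, 8.51, 6.08 and 5.99 FPKM, and with DSF 0.532, 0.550, 0.639 and 0.549. The groups lay far apart under both stimuli. The level was 12.9-fold lower with DSF under LPS (log2 difference -3.69, SE 0.15) and 12.6-fold lower under IL4CD40 (-3.66, SE 0.14). Unstimulated cells held 0.562 ± 0.0345 FPKM (SD, n = 4), with the 2 pairs of unstimulated libraries alike. Cells given IL4CD40 and DSF, at 0.567 ± 0.0481, overlapped that range, while cells given LPS and DSF, at 0.264 ± 0.101, lay below it.

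Both stimuli raised Grm6 over unstimulated cells by edgeR's quasi-likelihood test with Benjamini-Hochberg adjustment, 6.24-fold with LPS (adjusted p = 1.60e-07) and 12.8-fold with IL4CD40 (adjusted p = 5.10e-07). The LPS level was 1.97-fold below that with IL4CD40 (adjusted p = 1.78e-05), and with DSF present this distance was 2.10-fold (adjusted p = 0.00131). Against unstimulated cells, Grm6 with LPS and DSF was 2.11-fold lower (adjusted p = 0.00467), and with IL4CD40 and DSF the log2 difference was 0.03 with an SE of 0.14 (adjusted p = 0.877). These tests share the stimulated or the DSF libraries with the contrasts that chose the gene, as do all tests below.

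An antisense gene, Gm12660, lies inside Grm6 and had few reads, 24, 23, 17 and 14 counts with IL4CD40 and 1, 0, 3 and 1 with DSF. It was 1 of the 3 genes outside the 7 with the largest falls under IL4CD40 (log2 change -3.85, edgeR adjusted p = 5.03e-05). The strand setting of the counting is not given in the sources used here, so reads of Grm6 and Gm12660 cannot be told apart where they overlap.

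Clec4g (ENSMUSG00000074491, mm10 chr8:3707064-3720651, minus strand, up to 9 exons) was near the limit of detection in most groups. The counts were 12, 6, 6 and 7 with LPS and 1, 0, 0 and 4 with LPS and DSF. They were 45, 40, 29 and 30 with IL4CD40 and 1, 3, 0 and 4 with DSF. No DSF library reached the lowest vehicle library. The difference was 17.2-fold under IL4CD40 (log2 -4.11, SE 0.46), the lowest value of all 14275 genes tested there. Under LPS the gene did not pass the filter on low counts, and the summed counts of 5 against 31 give a 5.17-fold difference with an exact 95% interval of 1.99 to 17.0 that covers counting error only.

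IL4CD40 raised Clec4g from 0.188 ± 0.0871 FPKM in unstimulated cells to 0.699 ± 0.144 (n = 4 each), while with LPS it was at 0.154 ± 0.0545, which overlapped the unstimulated libraries. Because the gene passed the filter on low counts only in contrasts with the IL4CD40 libraries, where it was high, its tests are given from edgeR on all genes with any count, and the same is done for Slc4a10 and Insm1. The log2 change with IL4CD40 was 1.90 (SE 0.36, adjusted p = 0.00111), and the log2 difference of LPS from IL4CD40 was -2.11 (SE 0.33, adjusted p = 8.96e-06). After the filter, the change with IL4CD40 was 2.40 against unstimulated libraries 1 and 2 alone and 1.52 against libraries 3 and 4. With DSF the levels under both stimuli, 5 and 8 summed counts, were below the 46 of unstimulated cells, 6.24-fold (exact 95% interval 2.49 to 20.1) with LPS and 4.77-fold (2.23 to 11.7) with IL4CD40. Of sinusoidal endothelial markers, Lyve1 had at most 2 counts in any library, Stab2 had 23 to 29 with IL4CD40 and 13 to 23 with DSF, and Cdh5 had 4 to 6 and 3 to 16. The list of 10, which also holds Fcgr2b of B cells and the Kupffer cell gene Clec4f, summed to 16.8 to 26.5 FPKM with IL4CD40, where Clec4g was highest, and to 45.5 to 49.6 with DSF, and its part in the result was not tested. An antisense gene, Gm16553, overlaps Clec4g and had 26, 23, 16 and 12 counts with IL4CD40 and 6, 5, 5 and 5 with DSF (log2 change -1.86, edgeR adjusted p = 0.000564), and without strand its reads cannot be told apart from those of Clec4g.

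Mfsd2a (ENSMUSG00000028655, mm10 chr4:122946850-122961188, minus strand, up to 14 exons) had the highest level per length of the 7 genes in stimulated cells. It stood at 17.1, 16.6, 15.97 and 16.5 FPKM with LPS and at 4.88, 5.23, 5.84 and 6.02 with LPS and DSF. With IL4CD40 it stood at 22.4, 23.5, 17.6 and 16.9 FPKM and with DSF at 3.58, 3.40, 3.77 and 3.57. The ranges did not meet, and the difference was 2.98-fold under LPS (log2 -1.57, SE 0.07) and 5.68-fold under IL4CD40 (log2 -2.51, SE 0.11). In the order of all differences these were the 166th lowest of 14154 genes and the 16th lowest of 14275, so Mfsd2a was far from the extreme under LPS.

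Mfsd2a was also the one of the 7 with the largest log2 rise on stimulation. Unstimulated libraries held 1.07, 1.30, 0.323 and 0.195 FPKM, split between the pairs, and the rise was 22.9-fold with LPS (edgeR adjusted p = 4.54e-05) and 28.0-fold with IL4CD40 (adjusted p = 4.03e-05). With unstimulated libraries 1 and 2 alone the log2 changes were 3.83 and 4.09, and with libraries 3 and 4 alone 6.003 and 6.28. Mfsd2a was the single member that stayed above unstimulated cells with DSF under both stimuli, 7.58-fold with LPS (adjusted p = 0.000506) and 4.97-fold with IL4CD40 (adjusted p = 0.00242). The size depended on the pair: the log2 changes were 2.19 and 1.58 against unstimulated libraries 1 and 2 alone, and 4.37 and 3.77 against libraries 3 and 4. Without DSF the stimuli did not differ past the threshold (log2 difference of LPS from IL4CD40 -0.23, SE 0.10, adjusted p = 0.0860), a call that 4 alternatives changed. With DSF the LPS level was 1.56-fold higher (adjusted p = 5.50e-05).

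Slc4a10 (ENSMUSG00000026904, mm10 chr2:62046462-62326730, plus strand, up to 27 exons) was a low gene whose reads came mainly with LPS. It had 30, 38, 23 and 19 counts with LPS and 4, 1, 0 and 4 with LPS and DSF, with no overlap (9.58-fold, log2 -3.26, SE 0.47). With IL4CD40 it had 3, 4, 1 and 1 counts and with DSF 1, 0, 0 and 3, groups that overlapped and did not pass the filter. Their sums of 9 and 4 give a ratio of 2.19 with an exact 95% interval of 0.611 to 9.72. These counts are too few to describe a difference. In experiment 1, Slc4a10 was thus lower with DSF under LPS, and no fall is stated with IL4CD40.

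Unstimulated cells held 9, 17, 9 and 10 counts of Slc4a10, below every LPS library and above every library of IL4CD40. It passed the filter only in contrasts with the LPS libraries. With all genes that had any count, edgeR gave a log2 change of 1.56 with LPS (SE 0.33, adjusted p = 0.00251) and -1.997 with IL4CD40 (SE 0.58, adjusted p = 0.0157), and a log2 difference of 3.61 between LPS and IL4CD40 (SE 0.45, adjusted p = 1.86e-07). After the filter, the LPS change was 1.44 against unstimulated libraries 1 and 2 alone and 1.75 against libraries 3 and 4. The summed counts with IL4CD40 gave a ratio of 0.234 to unstimulated cells (exact 95% interval 0.101 to 0.486). Slc4a10 was the one member of the 7 that was higher with LPS than with IL4CD40.

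B3gnt7 (ENSMUSG00000079445, mm10 chr1:86302832-86307305, plus strand, 2 exons) was the glycosyltransferase of the set. It was at 4.36, 4.67, 4.96 and 4.32 FPKM with LPS and at 0.493, 0.418, 0.626 and 0.411 with DSF. With IL4CD40 it was at 14.4, 14.8, 12.4 and 10.5 FPKM and with DSF at 2.49, 2.46, 2.95 and 2.26. The difference was 9.33-fold under LPS (log2 -3.22, SE 0.13) and 5.20-fold under IL4CD40 (log2 -2.38, SE 0.12), again with no overlap. LPS lay 2.75-fold below IL4CD40 (edgeR adjusted p = 3.20e-07), and with DSF 5.15-fold below (adjusted p = 1.63e-09).

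The unstimulated level of B3gnt7 depended on the pair of libraries, at 8.29 and 9.40 FPKM in libraries 1 and 2 against 0.975 and 0.922 in libraries 3 and 4, a 9.17-fold gap. The LPS change was -0.07 on the log2 scale with all 4 (SE 0.69, edgeR adjusted p = 0.931), -0.92 with libraries 1 and 2 (adjusted p = 3.02e-10) and 2.30 with libraries 3 and 4 (adjusted p = 1.92e-13). With IL4CD40 it was 1.44 (adjusted p = 0.0954), 0.56 (adjusted p = 0.00627) and 3.80 (adjusted p = 1.38e-07). No direction with LPS can be stated for this gene. With LPS and DSF the level was below unstimulated cells on all 4 libraries (9.99-fold, adjusted p = 0.00513) and on each pair (log2 -4.22 and -0.98). With IL4CD40 and DSF it was -0.93 on the log2 scale with all 4 (adjusted p = 0.263), -1.81 with libraries 1 and 2 (adjusted p = 2.50e-09) and 1.42 with libraries 3 and 4 (adjusted p = 1.46e-06).

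**Figure D2:**
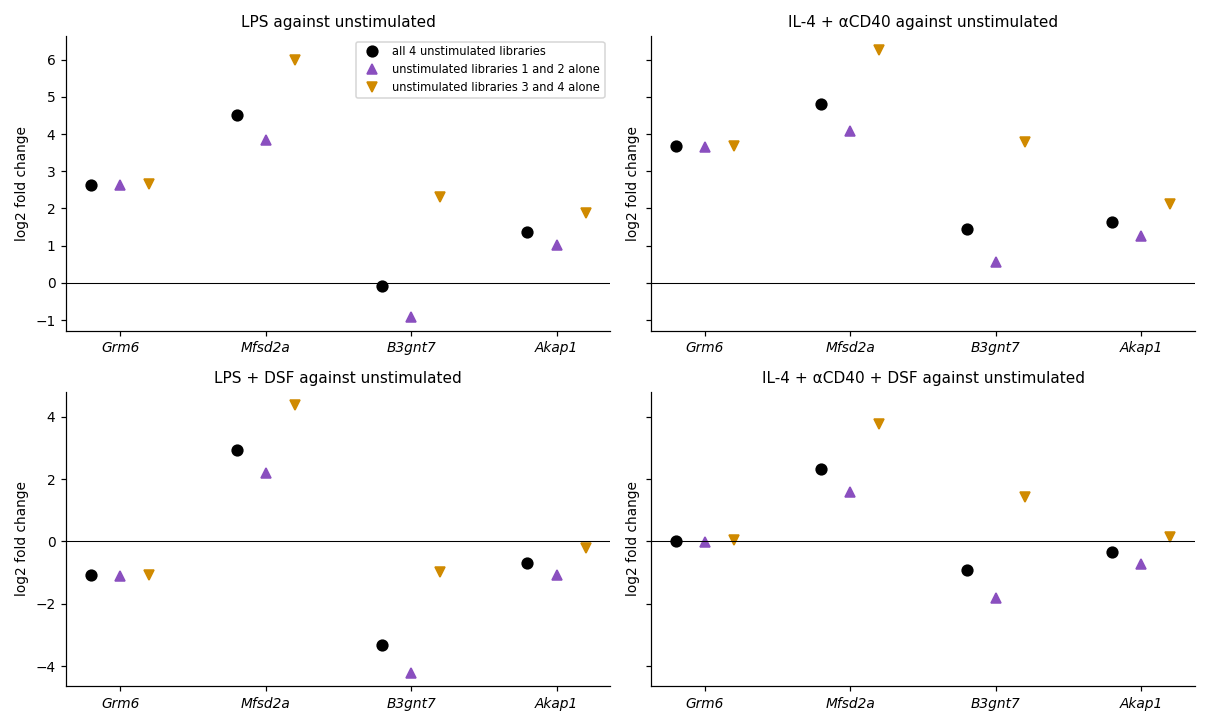
Log2 fold change from edgeR (y axis) of 4 genes in each stimulated group against unstimulated cells, with all 4 unstimulated libraries (circles), libraries 1 and 2 alone (upward triangles) or libraries 3 and 4 alone (downward triangles). Grm6 is placed alike by each choice, whereas B3gnt7 with LPS moves from -0.92 to 2.30.

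Akap1 (ENSMUSG00000018428, mm10 chr11:88830792-88864586, minus strand, up to 12 exons) encodes the mitochondrial kinase anchor. Its level was 2.74, 2.07, 2.57 and 2.07 FPKM with LPS and 0.670, 0.572, 0.561 and 0.487 with DSF. With IL4CD40 it was 2.91, 3.19, 2.72 and 2.43 FPKM and with DSF 0.804, 0.574, 0.809 and 0.709. The difference was 4.08-fold under LPS (log2 -2.03, SE 0.15) and 3.93-fold under IL4CD40 (log2 -1.97, SE 0.14), with no overlap. Akap1 ranked 32nd lowest with LPS and 46th lowest with IL4CD40.

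Stimulation raised Akap1 from 1.25, 1.13, 0.597 and 0.729 FPKM in unstimulated libraries, 2.58-fold with LPS (edgeR adjusted p = 0.000959) and 3.09-fold with IL4CD40 (adjusted p = 0.000296), and with each pair alone as well. The 2 stimuli overlapped (log2 difference of LPS from IL4CD40 -0.20, SE 0.12, adjusted p = 0.207). With LPS and DSF the level was 1.61-fold below unstimulated cells (adjusted p = 0.0366), a call lost with unstimulated libraries 3 and 4 alone (log2 -0.22, adjusted p = 0.397). It was also lost on leaving out unstimulated library 1 (adjusted p = 0.0828) or 2 (0.0744), or LPS and DSF library 2 (0.0766), 3 (0.0807) or 4 (0.0951). With IL4CD40 and DSF it was -0.34 on the log2 scale (SE 0.25, adjusted p = 0.254), and -0.73 (adjusted p = 0.00195) or 0.13 (adjusted p = 0.566) with the first or the second pair of unstimulated libraries.

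Insm1 (ENSMUSG00000068154, mm10 chr2:146221921-146225020, plus strand, 1 exon) was counted at 23, 29, 37 and 24 reads with IL4CD40 and at 2, 2, 0 and 7 with DSF, with no overlap (log2 difference -3.32, SE 0.50). That log2 difference rests partly on DSF library 4 and was -4.27 without it. With LPS it had 7, 7, 2 and 4 counts and with DSF 3, 0, 1 and 3, which overlapped. The sums of 20 and 7 give a 2.38-fold ratio with an exact 95% interval of 0.968 to 6.67. The libraries overlapped at these few counts, so no fall with DSF is stated for Insm1 with LPS.

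Unstimulated cells had 13, 15, 14 and 3 counts of Insm1. It passed the filter only in contrasts with the IL4CD40 libraries. With all genes that had any count, edgeR gave a log2 change of 1.60 with IL4CD40 (SE 0.40, adjusted p = 0.00692) and a log2 difference of -2.39 between LPS and IL4CD40 (SE 0.38, adjusted p = 1.26e-05). After the filter, the IL4CD40 change was 1.34 against unstimulated libraries 1 and 2 alone and 1.94 against libraries 3 and 4. Against unstimulated cells LPS gave a ratio of summed counts of 0.547 (exact 95% interval 0.306 to 0.946), and edgeR gave a log2 difference of -0.85 (SE 0.54, adjusted p = 0.262). Of 10 neuronal and neuroendocrine markers, 4 had no read in unstimulated or LPS libraries and 6 none with IL4CD40, and Snap25 had at most 1 read in any library. Summed over the 10, the markers were at 0.489 to 0.979 FPKM with IL4CD40 and 1.39 to 2.48 with DSF, so they were higher where Insm1 was lower. Their part in the result was not tested.

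Across the set, 4 of the 5 members tested rose with LPS (Grm6, Mfsd2a, Akap1 and Slc4a10) by edgeR and B3gnt7 did not pass the threshold, beside 29.6% of all genes higher and 33.3% lower. With IL4CD40, 5 of the 6 tested rose (Grm6, Mfsd2a, Akap1, Clec4g and Insm1), beside 30.4% of all genes higher and 32.1% lower. Slc4a10, which the filter left out there, was lower than unstimulated cells in every library and by edgeR with any count. The genes were chosen as high without DSF and the 3 low ones passed the filter only through a group where they were high, so these counts support nothing about the set. Between the stimuli, 4 of 7 were lower with LPS (Grm6, Clec4g, B3gnt7 and Insm1) and 1 was higher (Slc4a10), beside 17.3% lower and 22.3% higher. Clec4g, Insm1 and Slc4a10 passed the filter there only through the stimulus where they were high. This count too supports nothing about the set.

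With DSF present, 3 of the 4 members tested were below unstimulated cells under LPS (Grm6, B3gnt7 and Akap1) and 1 was above (Mfsd2a), beside 37.3% of all genes lower and 34.3% higher. Under IL4CD40 and DSF, 1 of 4 was above (Mfsd2a) and the other 3 did not pass the threshold, beside 33.4% higher and 35.3% lower. Between the stimuli with DSF, 2 of 4 were lower with LPS (Grm6 and B3gnt7) and 1 was higher (Mfsd2a), beside 23.3% lower and 21.8% higher. Clec4g, Slc4a10 and Insm1 did not pass the filter on low counts in these 3 contrasts. With all genes that had any count, 7 of 7 members passed the threshold under LPS with DSF against unstimulated cells, Mfsd2a above and the others below. Of all 28077 genes tested that way, 5307 were higher and 6084 lower. Under IL4CD40 with DSF 3 of 7 passed, Mfsd2a above and Clec4g (log2 -2.25, edgeR adjusted p = 0.0205) and Slc4a10 (-3.14, adjusted p = 0.00498) below. Of all 27969 genes tested there, 4930 were higher and 5624 lower. The genes were chosen as lowered by DSF, so nothing about the set is read from the counts in this paragraph.

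In experiment 2, which had 1 library per condition and allows no test, Grm6 had 531 counts with LPS, 22 with LPS and DSF and 342 with LPS and ibrutinib. With IL4CD40 the counts were 758, 17 with DSF and 964 with ibrutinib. After TMM scaling, Grm6 was 22.5-fold lower with DSF under LPS (exact 95% interval of counting error 14.7 at its lower end) and 34.3-fold lower under IL4CD40 (lower end 21.3), the lowest log2 ratio of 14275 genes there. With ibrutinib it was 2.03-fold lower under LPS and 1.11-fold lower under IL4CD40. Unstimulated cells had 201 counts, above both DSF libraries, whereas in experiment 1 the group with IL4CD40 and DSF had met the unstimulated level.

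Mfsd2a had 630 counts with LPS, 45 with DSF and 422 with ibrutinib, and 1274, 30 and 791 with IL4CD40. The ratio with DSF was 13.03-fold lower and 32.7-fold lower, larger distances than the 2.98-fold and 5.68-fold of experiment 1, and the DSF libraries lay below the 1.59 FPKM of unstimulated cells, at 1.16 and 0.932 FPKM. With ibrutinib it was 1.95-fold lower with LPS and 2.28-fold lower with IL4CD40. Mfsd2a was the member with a 2-fold lower level with ibrutinib under IL4CD40, and Grm6 the one under LPS.

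Akap1 had 217 counts with LPS, 8 with DSF and 176 with ibrutinib, and 174, 17 and 176 with IL4CD40. That is 25.2-fold and 7.87-fold lower with DSF, and 1.61-fold and 1.40-fold lower with ibrutinib. B3gnt7 had 169, 32 and 179 counts with LPS and 1225, 90 and 1198 with IL4CD40, or 4.91-fold and 10.5-fold lower with DSF and 1.24-fold and 1.45-fold lower with ibrutinib. The unstimulated library of experiment 2 held 451 counts of B3gnt7 (5.01 FPKM), between the 2 pairs of experiment 1.

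The 3 low genes went less clearly in experiment 2. Clec4g had 10 counts with LPS and 11 with DSF, a ratio of 1.18 with an exact 95% interval of 0.456 to 3.10, and 12 against 2 with IL4CD40. The unstimulated library had 2 counts of Clec4g, a ratio of 5.91 with LPS (interval 1.26 to 55.5) and 7.04 with IL4CD40 (1.57 to 64.8). The 2 stimuli were thus close for Clec4g here, whereas in experiment 1 LPS lay below IL4CD40 and overlapped unstimulated cells. Insm1 had 5 counts with LPS and 11 with DSF (ratio 2.36, interval 0.757 to 8.68), and 40 against 6 with IL4CD40 (5.13-fold lower, interval 2.16 at its lower end). Slc4a10 had 7 counts with LPS and 8 with DSF (ratio 1.23, interval 0.389 to 3.98), and 2 and 0 with IL4CD40, too few for a ratio. It was highest, at 30 counts, in the unstimulated library, and LPS against unstimulated gave a ratio of 0.276 (interval 0.102 to 0.641), opposite in direction to experiment 1. With LPS in experiment 2, the few counts with DSF were thus not below those with vehicle for Clec4g, Insm1 or Slc4a10. The intervals of Clec4g and Slc4a10, which cover counting error only, still allow a 2-fold fall. With ibrutinib, Clec4g had 43 counts against 12 under IL4CD40 (ratio 2.53, interval 1.31 to 5.28), and Insm1 had 25 against 5 under LPS (ratio 3.82, interval 1.44 to 12.8).

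Counted by a 2-fold size, 4 of the 6 members with enough reads were lower with DSF under LPS and 6 of 6 under IL4CD40, beside 19.5% and 20.3% of all genes lower, while 20.3% and 21.9% were higher. The rule allowed these columns in the choice, and nothing is read from the counts. With ibrutinib 1 of 6 was lower and 1 of 6 higher under each stimulus. Among all genes 2.47% were lower and 2.81% higher with ibrutinib under LPS, and 1.69% and 2.23% under IL4CD40. The ibrutinib and DSF ratios share the vehicle library, and the tables of the 2 experiments were normalized separately.

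**Figure D3:**
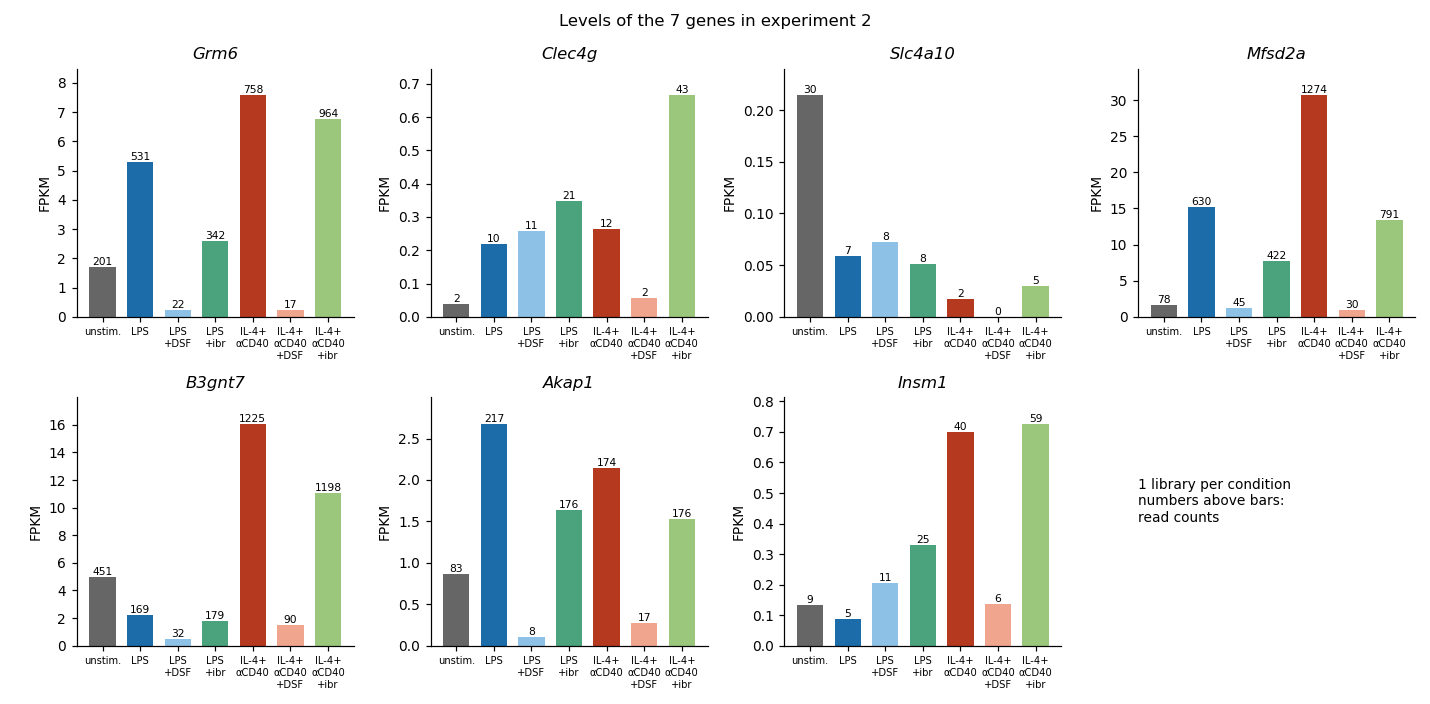
FPKM of each gene (y axis, linear, one panel per gene) in the 7 libraries of experiment 2, 1 per condition, with the read count above each bar (ibr, ibrutinib). Grm6, Mfsd2a and Akap1 are lowest in the DSF libraries, while Clec4g, Slc4a10 and Insm1 have 11, 8 and 11 counts with LPS and DSF against 10, 7 and 5 with LPS.

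**Figure D4:**
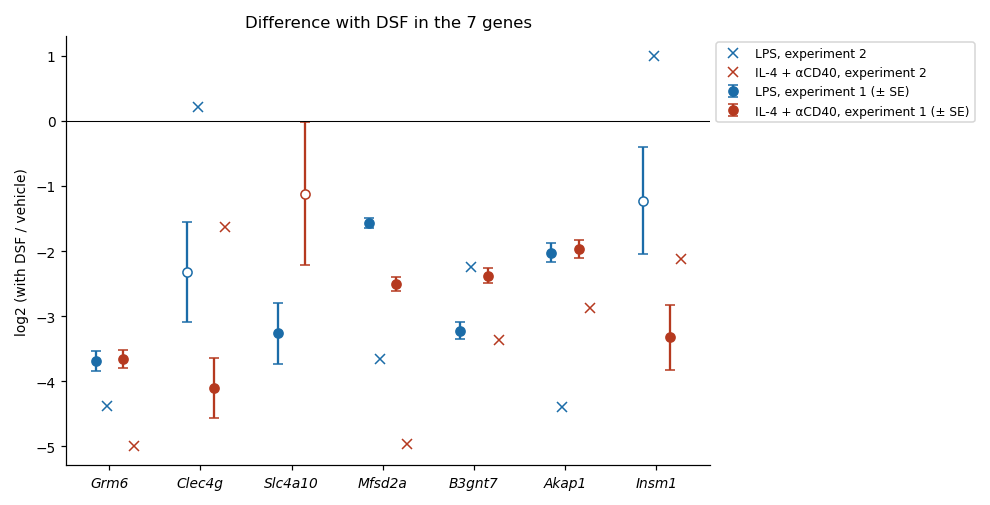
Log2 ratio of DSF to vehicle (y axis) for the 7 genes, with circles for experiment 1 (4 libraries a group, ± SE, open where the gene did not pass the filter on low counts) and crosses for experiment 2 (1 library a group), blue for LPS and red for IL4CD40. Grm6 lies between -3.66 and -4.99, and the crosses of Clec4g and Insm1 under LPS lie above 0.

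In the order of all log2 differences with DSF in experiment 1, Grm6 was the 2nd lowest of 14154 genes with LPS, Slc4a10 the 4th and B3gnt7 the 5th. With IL4CD40, Clec4g was the lowest of 14275, Grm6 the 3rd, Insm1 the 4th and B3gnt7 the 20th. The genes outside the set that fell most with LPS were Gm31793 (log2 change -4.12, edgeR adjusted p = 2.02e-07), Ccr6 (-3.53, adjusted p = 5.02e-23) and Apol7c (-3.01, adjusted p = 2.96e-12). Of these Ccr6, a chemokine receptor of B cells, was far the most abundant, at 29.5 FPKM with LPS and 2.53 with DSF. With IL4CD40 they were Gm12660, 4930538E20Rik (-3.20, adjusted p = 0.000287) and Gm43910 (-3.08, adjusted p = 0.000117), all at under 2 FPKM without DSF. The largest log2 differences thus included many genes of few reads.

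The members differed in how alike they were over the 20 libraries of experiment 1. On log2 CPM (counts scaled to library size) the Pearson correlation was 0.96 between Grm6 and Akap1, 0.90 between Clec4g and Insm1 and 0.84 between B3gnt7 and Akap1, while Slc4a10 reached at most 0.42 with another member. These values are descriptions over libraries of 5 shared groups, among genes chosen for a common direction. Of all genes outside the set, those most like Grm6 were Ipo11 (0.99), Sfxn1 (0.98) and Mthfd1 (0.98), and those most like Akap1 included Gart and Dctd (0.98 each). Mfsd2a was most like Prmt5 (1.00), Ddx27 (0.99) and Trmt61a (0.99), which with DSF kept a larger share of their stimulated level: Prmt5 stood at 38.5 FPKM with LPS and 28.9 with LPS and DSF. B3gnt7 was most like Glce (0.96), Sox12 (0.96) and Med25 (0.96), Clec4g like Pitpnm2 (0.92), Cdon (0.92) and Mtg2 (0.90), Slc4a10 like Nid1 (0.91), Tagln2 (0.91) and Jade1 (0.90), and Insm1 like Arhgap35 (0.85), Ubap1l (0.84) and Xpo7 (0.84).

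The genes beside the members were compared next, taking the 2 nearest on each side with a mean of at least 10 counts. Of 28 such neighbours 26 were tested, and 15 fell and 6 rose with DSF under LPS, beside 36.0% and 35.1% of all genes. With IL4CD40, 16 fell and 3 rose, beside 31.6% and 30.1%. The median log2 change of the neighbours was -0.34 and -0.46. Some neighbours overlap each other: Gm16341 and Armc9, Dpp4 and Gm13561, Scpep1 and Scpep1os, and Gm14117 and Ralgapa2. Without the strand setting their reads cannot be told apart there, so the neighbours are not all separate observations. Both close neighbours of Grm6 fell under LPS, Zfp354c by 2.10 (edgeR adjusted p = 1.30e-06) and Zfp2 by 1.88 (adjusted p = 2.64e-05) on the log2 scale, whose midpoints lie 39.0 and 49.0 kb away and both of which encode zinc finger proteins. The next 2, at 448 and 412 kb, did not fall: Rufy1 stood at 0.07 (adjusted p = 0.350) and Gm25082 rose by 0.54 (adjusted p = 0.0272). Beside Mfsd2a, 4933421A08Rik (8.37 kb between midpoints) fell by 1.79 (adjusted p = 7.15e-06) and Gm12891 (28.1 kb) by 0.96 (adjusted p = 0.0179). Cap1 rose by 0.86 (adjusted p = 7.81e-16) and Mycl stood at 0.49 (adjusted p = 0.138). The span of 4933421A08Rik, chr4:122961309-122963475, lies partly inside the promoter window printed for Mfsd2a, chr4:122961189-122961438.

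The other members had mixed surroundings under LPS. Beside B3gnt7, Gm16341 fell by 1.67 (edgeR adjusted p = 3.15e-05) and Armc9 by 1.62 (adjusted p = 2.75e-11), and Ncl, the nucleolin gene, fell by 0.12 (adjusted p = 0.0190). C130036L24Rik, on that same far side, stood at -0.26 (adjusted p = 0.254). Beside Akap1, Scpep1 rose by 1.17 (adjusted p = 7.23e-17) and Scpep1os by 1.69 (adjusted p = 2.21e-05), Msi2 fell by 0.36 (adjusted p = 4.94e-07) and C030037D09Rik stood at -0.02 (adjusted p = 0.966). Beside Slc4a10, Dpp4 fell by 1.85 (adjusted p = 2.52e-19) and Gm13561 by 1.17 (adjusted p = 0.00111), whereas Tank rose by 0.76 (adjusted p = 1.93e-14) and Psmd14 by 0.32 (adjusted p = 1.91e-06). Clec4g lies in a lectin cluster. There Fcer2a, the low-affinity IgE receptor of B cells, fell by 0.39 (adjusted p = 1.97e-09) and Trappc5 by 0.72 (adjusted p = 1.29e-11). With IL4CD40, Fcer2a fell by 1.38 (adjusted p = 2.21e-06), Cd209a by 1.39 (adjusted p = 0.000756) and Trappc5 by 0.72 (adjusted p = 0.000167). Cd209d was not tested. Around Insm1, again under LPS, Naa20 fell by 0.31 (adjusted p = 7.69e-07) and Gm14117 by 0.84 (adjusted p = 0.000450). Ralgapa2 fell by 0.39 (adjusted p = 3.72e-06), and Crnkl1 stood at -0.08 (adjusted p = 0.211).

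**Figure D5:**
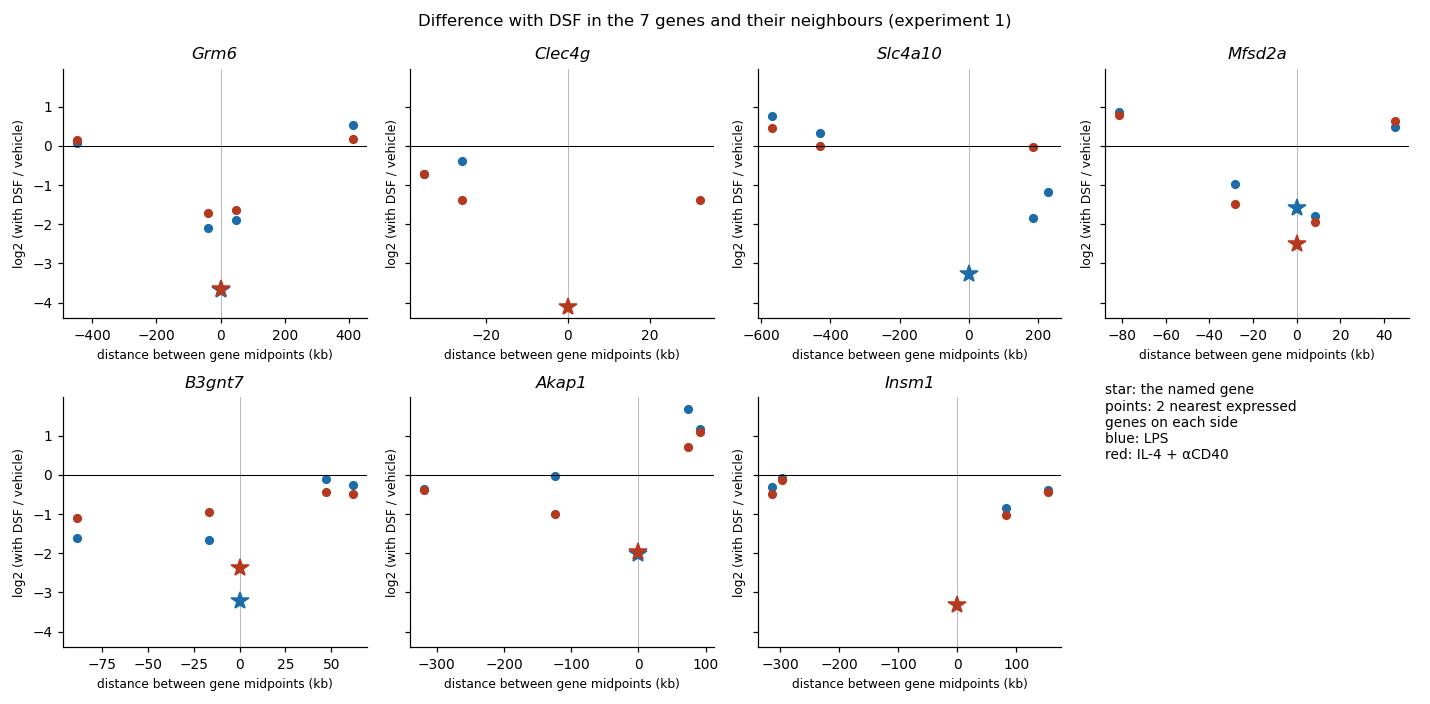
Log2 ratio of DSF to vehicle in experiment 1 (y axis) against the distance between gene midpoints in kb (x axis), with stars for the 7 genes, points for up to 4 neighbours, blue for LPS and red for IL4CD40, and genes not tested left out. The close neighbours of Grm6, at -1.64 to -2.10, lie between the star and 0, and those at 412 and 448 kb lie near or above 0.

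Relatives of the 7 genes, from lists written by hand, were read under LPS with DSF first, where 36.0% of all genes tested fell and 35.1% rose. In the cascade of the Grm6 receptor, 3 of 18 genes were tested and 2 rose, Nyx, the nyctalopin of ON bipolar cells, by 2.39 (edgeR adjusted p = 1.22e-13) and Gnai3, an inhibitory G protein subunit, by 0.65 (adjusted p = 1.28e-12), and none fell. The other 15 genes of the list did not pass the filter on low counts. In the list of glycan enzymes around B3gnt7, not all of which make polylactosamine or keratan sulfate, 11 of 24 tested fell and 6 rose, with a median of -0.20. St3gal4 (-0.92, adjusted p = 2.21e-06) and St3gal3 (-0.91, adjusted p = 6.62e-05), which add sialic acid, and the galactosyltransferase B4galt4 (-1.07, adjusted p = 0.00351) fell most. The galactosyltransferases B4galt7 (1.33, adjusted p = 3.42e-14) and B4galt1 (0.87, adjusted p = 9.64e-16) and the close relative B3gnt8 (1.26, adjusted p = 1.31e-07) rose.

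Among C-type lectins, 9 of 16 tested fell and 4 rose, with a median of -0.39, beside 36.0% of all genes lower and 35.1% higher. Clec4a2 (-1.26, edgeR adjusted p = 0.00486), Clec4a3 (-1.13, adjusted p = 9.95e-07) and Clec2d, the ligand of the NK receptor NKR-P1 (-1.12, adjusted p = 2.80e-15), fell most, and Clec7a, the glucan receptor Dectin-1 (1.11, adjusted p = 1.41e-05), Clec2i (0.95, adjusted p = 7.07e-16) and Clec4d (0.60, adjusted p = 1.97e-07) rose. Several of these are myeloid genes, and the 10 myeloid markers summed to 226 to 245 FPKM with LPS and 182 to 187 with LPS and DSF. Their part in the result was not tested. In the bicarbonate list around Slc4a10, 10 of 18 tested rose and 4 fell. The sulfate transporter Slc26a11 (2.95, adjusted p = 6.29e-20), the anion exchanger Slc4a3 (2.66, adjusted p = 7.26e-08) and Slc4a11 (2.28, adjusted p = 1.23e-17) rose, while the carbonic anhydrases Car2 (-1.14, adjusted p = 2.03e-09) and Car15 (-0.86, adjusted p = 0.00715) and the exchanger Slc26a6 (-0.34, adjusted p = 0.0201) fell. Slc4a10 was thus lower where most genes of its list that passed the test were higher.

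Of the list around Mfsd2a, 28 genes were tested, 13 rose and 10 fell. For this list and the next ones the shares of all genes are again 35.1% higher and 36.0% lower. Mfsd3 (-2.47, edgeR adjusted p = 1.03e-07), the acyl-CoA synthetase Acsl5 (-1.09, adjusted p = 2.67e-17) and the lysosomal Mfsd8 (-1.05, adjusted p = 7.75e-07) fell most. Fads3 (2.52, adjusted p = 4.62e-08), the lysosomal Mfsd1 (1.75, adjusted p = 4.14e-20) and Mfsd11 (1.32, adjusted p = 6.56e-14) rose. Of A-kinase anchors and kinase A subunits, 8 of 15 fell and 2 rose, with a median of -0.47. Prkar2a, a regulatory subunit that binds such anchors (-1.38, adjusted p = 9.04e-11), the catalytic subunit Prkaca (-1.11, adjusted p = 1.64e-09) and Akap11 (-1.03, adjusted p = 2.98e-14) fell, and the anchors Akap12 (1.16, adjusted p = 4.60e-14) and Akap13 (0.45, adjusted p = 1.45e-10) rose. Of the regulators and corepressors listed with Insm1, 5 of 11 rose and 3 fell. The demethylase Kdm1a (0.74, adjusted p = 1.86e-14), Gse1 (1.14, adjusted p = 1.07e-14) and Rcor3 (0.58, adjusted p = 5.89e-05) rose, and those that fell included Ccnd1 (-0.84, adjusted p = 0.00229) and Hdac2 (-0.66, adjusted p = 1.28e-12).

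With IL4CD40, where 30.1% of all genes tested rose and 31.6% fell, the counts for the same lists were 4 of 4 tested higher for the Grm6 cascade, 10 higher and 7 lower of 24 around B3gnt7, and 6 higher and 6 lower of 18 lectins. They were 7 higher and 2 lower of 18 around Slc4a10, 12 and 7 of 28 around Mfsd2a, 3 and 8 of 15 around Akap1 and 4 and 2 of 11 around Insm1. The list around Akap1 kept its negative median, at -0.40 against -0.02 over all genes, whereas the list around B3gnt7 had a median of 0.11 and the lectins one of -0.23.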

How the data were processed

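The authors' counts per gene, for 54532 genes in 27 libraries, were deposited as raw counts after mapping with HISAT2 2.0.5 to mm10 and counting with featureCounts 1.5.0-p3, as named in the submitters' processing notes. FPKM columns, which the authors derived from the same reads, were deposited in separate tables. The annotation release and the strand setting are not given in the sources used here. Exon numbers come from GENCODE vM21, which places the 7 genes at the same coordinates as the files.

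The members and lists were chosen with earlier results of these data known. For experiment 1, each contrast of 8 libraries went through edgeR 4.0.16 under R 4.3.3, with filterByExpr on low counts, TMM scaling and the quasi-likelihood test. Adjusted p-values are Benjamini-Hochberg over all genes tested, with 0.05 as threshold. The fits between DSF and vehicle covered all genes, but no test result is given for the members there, since that contrast chose them. Experiment 2 was described by log2 ratios after TMM scaling (prior count 2), leaving out genes whose mean was under 10 counts. Ratios of summed or single counts have exact 95% intervals (Clopper-Pearson, SciPy 1.17.1) that cover counting error only.

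The alternatives were DESeq2 1.42.0, its size factors in edgeR, total counts, all genes with any count, all 20 libraries in one fit, a replicate block and leaving out each library. For experiment 2 they were a prior count of 0.5, total counts, the deposited FPKM and a mean of at least 50 counts. The edgeR and DESeq2 tests were first run on data simulated from the LPS libraries with and without DSF. The split among unstimulated libraries was not simulated. Besides the members, genes were named by rule: the 3 most alike over 20 libraries, 2 neighbours each side, up to 3 per direction of each list by size with LPS, and the 3 largest falls per stimulus. A few genes that this rule names are not reported here. All sample columns of the tables were used.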

Additional observations from a re-analysis of the deposited data

Results flagged for a closer look

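In 35 groups of 4 libraries (7 genes in 5 groups of experiment 1), 1 group had a library set apart from the other 3. Grm6 with IL4CD40 and DSF was at 0.639 FPKM in library 3, against 0.532 to 0.550 in the others, a gap of 0.833 of the group's whole range, just above Dixon's critical value for 4 samples. Chance flags about 1 in 20 groups. The library stayed below every vehicle library, and the log2 difference with DSF was between -3.73 and -3.56 whichever library was left out. The cause was not tested.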

How the results depend on the processing

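The results between DSF and vehicle kept their direction under all alternatives run. The number of members without overlap, 6 of 7 under each stimulus, was 6 or 7 with LPS and 6 with IL4CD40 under the alternatives run, and does not depend on a filter, so the any-count and single-fit alternatives were not run for it. Against unstimulated cells, the count of members past the threshold under LPS with DSF went from 4 to 7 with all genes with any count and to 7 with all 20 libraries in one fit, where more members were tested. Under IL4CD40 with DSF it went from 1 to 2 with total counts, 3 with any count, 4 in the single fit, 1 to 2 on leaving out a library, 4 with unstimulated libraries 1 and 2 alone and 3 with libraries 3 and 4 alone (chosen after seeing the data). The counts moved by leaving out unstimulated library 4 or library 4 of IL4CD40 with DSF were 2 each.

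Directions turned for B3gnt7 with LPS (main -0.07), to 0.59 with the replicate block, -0.42 to 0.46 on leaving out a library and 2.30 with unstimulated libraries 3 and 4 alone. For B3gnt7 with IL4CD40 and DSF the value was 1.42 with those libraries, and for Akap1 it was 0.13. Grm6 with IL4CD40 and DSF, at 0.03, was -0.28 with total counts, -0.0303 with any count, -0.0264 to 0.0509 on leaving out a library and -0.0123 with unstimulated libraries 1 and 2 alone. B3gnt7 with IL4CD40 passed the threshold with the replicate block (2.09), in the single fit (1.38) and without unstimulated library 2 (1.96). Mfsd2a between the stimuli passed with total counts (-0.36), DESeq2 (-0.24) and without IL4CD40 library 3 (-0.29) or 4 (-0.30), and lost its call with DSF in the single fit (0.62). Akap1 passed with total counts between the stimuli without (-0.33) and with DSF (-0.45) and for IL4CD40 with DSF (-0.66). The cause was not tested.

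Replicate numbers did not pair the libraries: deviations of same-numbered libraries correlated at -0.06 to 0.28, and in no contrast were all 4 over 0.1. With the replicate block the members called were 4, 6, 5, 4, 1 and 3 in the 6 tested contrasts, against 4, 5, 5, 4, 1 and 3 without it. This is a check on the processing, and nothing about the members is read from it. With total counts the calls over all genes were 2903 higher and 6387 lower with LPS, 3454 and 5574 with IL4CD40, 2428 and 4712 between them, 3151 and 7453 and 3117 and 6760 with DSF against unstimulated cells, and 2137 and 5316 between the stimuli with DSF. The 4 counts of experiment 2 stayed within 1.5 times of the main count under its 4 alternatives. Depth limits Clec4g, Insm1 and Slc4a10, which had 0 to 7 counts in the DSF libraries of experiment 1.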
